A study of Rattus norvegicus with 10 samples.

Results

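Genes that set vascular tone were read in the rat intracranial aneurysm: the endothelin receptors Ednra and Ednrb, the angiotensin receptor Agtr1a, the angiotensin-converting enzyme Ace, the mineralocorticoid receptor Nr3c2, the nitric oxide synthases Nos1 and Nos3, and the phosphodiesterases Pde5a and Pde3a. They were taken by symbol from the table of 22081 genes. Of 10 genes named by this rule, 9 were found, and Prkg1, the cyclic GMP-dependent kinase, was not analysed here. The 2 groups were 5 rupture-prone aneurysms (aneurysm 4 to 8) and 5 samples of the remaining circle of Willis, labelled control (circle of Willis 4 to 8). All animals were wild type. According to the methods of the study, they were female Sprague–Dawley rats aged 10 weeks at surgery. Both ovaries were removed, and 4 arteries were tied: the carotid and the renal artery on the left, and the external carotid and pterygopalatine arteries on the right. The food held 8% salt (sodium chloride) and 3-aminopropionitrile at 0.12%, a compound that blocks lysyl oxidase. Lesions at the anterior or posterior communicating artery were counted as rupture-prone, and both tissues of an animal were dissected on day 63. The circle of Willis is therefore artery of operated, hypertensive rats on the same food, not of untreated ones.

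Endothelin acts on smooth muscle through Ednra to constrict the artery, while Ednrb on endothelium releases nitric oxide and clears the peptide. Ace cleaves angiotensin I to angiotensin II, which constricts through Agtr1a and raises aldosterone, the ligand of Nr3c2. Nitric oxide made in endothelium by Nos3, or in perivascular nerves and neurons by Nos1, activates guanylate cyclase in smooth muscle, and the cyclic GMP formed there relaxes the cell until Pde5a hydrolyses it. Pde3a hydrolyses cyclic AMP and is inhibited by cyclic GMP.

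The promoters of the genes whose reads are described most closely below are shown to place them in the genome and to let their motifs be compared. They are the 250 bases before and 50 bases after the start of each gene in RefSeq (build GRCr8), 5′ to 3′ on the strand of the gene. Capitals mark matches to the GC box (GGGCGG or CCGCCC), the TATA motif (TATAAA or TTTATA) and the GATA motif (GATAA or TTATC), read on both strands.
Nos3, chr4:11706532-11706831, minus strand: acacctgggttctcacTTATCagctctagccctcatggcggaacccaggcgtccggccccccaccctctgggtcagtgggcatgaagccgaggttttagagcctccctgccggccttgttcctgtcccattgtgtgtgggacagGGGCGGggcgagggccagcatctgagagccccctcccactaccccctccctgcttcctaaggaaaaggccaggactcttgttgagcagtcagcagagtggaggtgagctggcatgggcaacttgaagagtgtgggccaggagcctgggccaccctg
Nos1, chr12:44371788-44372087, minus strand: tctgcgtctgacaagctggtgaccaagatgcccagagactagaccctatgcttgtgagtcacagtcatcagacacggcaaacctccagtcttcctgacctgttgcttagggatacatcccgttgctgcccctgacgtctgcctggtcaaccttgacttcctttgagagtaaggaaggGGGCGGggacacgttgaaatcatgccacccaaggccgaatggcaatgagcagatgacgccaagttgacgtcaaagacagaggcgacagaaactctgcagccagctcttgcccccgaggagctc
Agtr1a, chr17:34435383-34435682, minus strand: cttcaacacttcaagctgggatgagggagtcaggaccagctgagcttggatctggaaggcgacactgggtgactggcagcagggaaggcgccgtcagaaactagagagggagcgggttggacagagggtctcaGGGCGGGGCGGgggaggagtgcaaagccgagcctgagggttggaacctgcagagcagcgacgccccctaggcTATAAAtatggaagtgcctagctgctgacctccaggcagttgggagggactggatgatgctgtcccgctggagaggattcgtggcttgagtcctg
Pde5a, chr2:213543776-213544075, plus strand: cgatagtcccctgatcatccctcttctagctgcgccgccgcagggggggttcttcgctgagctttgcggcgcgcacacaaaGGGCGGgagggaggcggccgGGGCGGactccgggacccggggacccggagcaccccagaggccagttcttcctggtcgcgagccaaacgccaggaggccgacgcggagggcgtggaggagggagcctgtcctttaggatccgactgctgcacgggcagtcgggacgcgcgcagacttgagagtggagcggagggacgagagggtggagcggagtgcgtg
The Nos3 window held 1 GC box and 1 GATA motif, and the Nos1 window held 1 GC box. Agtr1a had 2 GC boxes that overlap each other and 1 TATA motif, and Pde5a had 2 GC boxes. Of the other members matched, Ace had 4 GC boxes and 1 TATA motif, Pde3a had 1 GC box, and Ednra and Ednrb had no match. RefSeq promoters matched 8 of the 9 members, all except Nr3c2. Over all 33469 promoters of the same length, 33.1% held the GC box, 14.2% the TATA motif and 26.5% the GATA motif. A match is a description of letters, not a binding site.

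The libraries held 4513515 to 7352626 gene reads (median 4733695) in aneurysms and 3017269 to 5692715 (median 4246517) in circle of Willis samples. Gene reads are the exon and intron reads of a gene together, and CPM below are gene reads per 1000000 of the library size after TMM scaling. Aneurysm 8 stood apart, with 743 genes at 10 or more exon reads against 2664 to 7590 in the other 9 libraries, and a TMM factor of 0.282 against 0.759 to 1.57. Its CPM are thus raised by the scaling. Marker sums of neurons were 38.0 to 174 CPM in aneurysms against 242 to 1062 CPM in circle of Willis samples, with no overlap, and astrocyte sums were 5.54 to 282 CPM against 485 to 1008 CPM. Smooth muscle markers summed to 367 to 1081 CPM against 767 to 1509 CPM, and endothelial markers to 66.3 to 303 CPM against 121 to 315 CPM. Some markers of both cell types were thus read in both groups. The smooth muscle sum of 1081 CPM was that of aneurysm 8. There only 4 of 10 smooth muscle and 2 of 9 endothelial markers had at least 10 reads, and Acta2, Tagln and Cnn1 had 0. Fibroblast markers summed to 293 to 19987 CPM in aneurysms against 54.8 to 387 CPM in circle of Willis samples, and macrophage markers to 82.3 to 6165 CPM against 23.9 to 137 CPM. In aneurysms 5, 6 and 7 the fibroblast sum was mostly the collagens Col1a1 and Col3a1. The fibroblast marker Pdgfra had 1048, 589, 0, 119 and 3 reads in aneurysms 4 to 8. In circle of Willis 4 to 8 it had 490, 208, 53, 751 and 3. In edgeR 0 of 8 tested neuron markers, 2 of 4 fibroblast markers and 1 of 8 macrophage markers were called, and the called markers were all higher in aneurysms. Neutrophil markers were near 0 in both groups, with S100a9, Mpo and Elane at 0 in all samples. In bulk tissue, fewer cells of a type and less RNA per cell cannot be told apart.

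No member passed the threshold between aneurysm and circle of Willis in the fit over all genes. Of the 9 members, 6 passed the low-count filter, and 0 of these 6 had an adjusted p under 0.05 (edgeR's quasi-likelihood test, Benjamini-Hochberg adjustment over 7615 genes), against 0.158% of all genes tested, or 12 genes. At an unadjusted p under 0.05 the count was also 0 of 6, against 5.73% of all genes tested, and DESeq2 called 1 member, Agtr1a, against 3.81% of the genes it tested. In edgeR without the filter 0 of the 9 members were called, against 0.778% of 16700 genes. The spread between samples was wide, with a biological coefficient of variation of 1.38. The fitted log2 fold changes were negative for 5 of the 6 tested members and positive for 1, with a median of −0.65 against 0.13 over all genes tested.

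**Figure D1:**
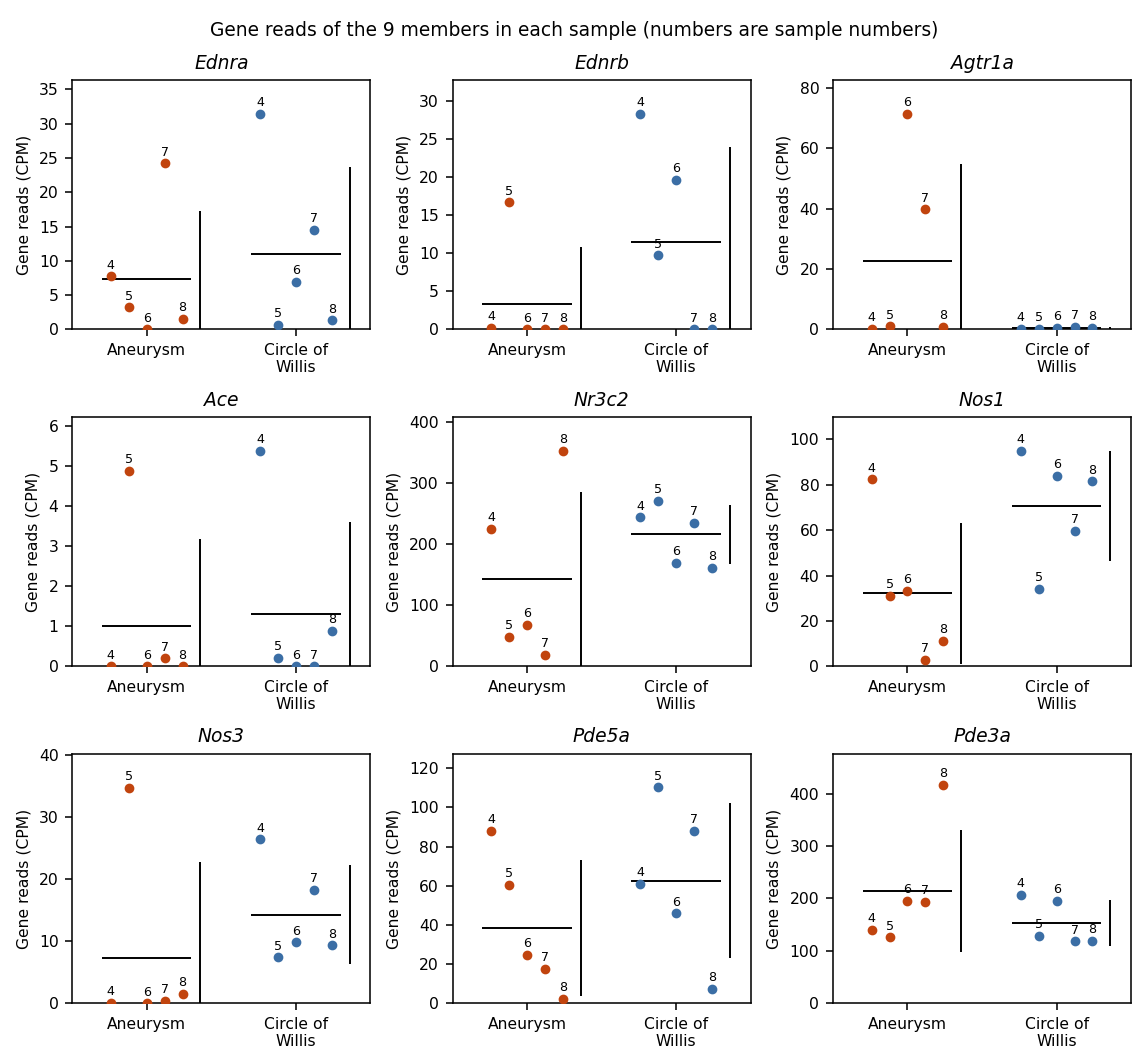
Gene reads of the 9 members in CPM (y axes, linear, each from 0) in each aneurysm (red, left) and circle of Willis sample (blue, right), with the sample number above each point. Horizontal lines are means and vertical lines 1 SD either side, drawn from 0 where the mean less the SD is below 0 (n = 5 each). The groups overlap in every panel, and in Ednrb, Ace and Nos3 the aneurysm mean rests on aneurysm 5.

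The endothelin receptors were read in some samples of each group and not in others. Ednra had 66, 35, 0, 120 and 2 gene reads in aneurysms 4 to 8, against 181, 3, 24, 82 and 3 in circle of Willis 4 to 8. Aneurysm 7 and circle of Willis 4 were highest, and the groups overlapped over nearly their whole range. Its level was 7.35 ± 9.86 CPM in aneurysms, against 10.97 ± 12.7 CPM in circle of Willis samples (SD, n = 5 each), and the log2 fold change was −0.57 (SE 1.67, adjusted p = 0.999 in edgeR). Without circle of Willis 4 the value was 0.34, so that the direction rested on that sample. The difference in mean CPM had a two-sided exact permutation p of 0.627 over the 252 splits of 5 against 5, of which the smallest possible p is 0.00794. These splits, here and below, treat the samples as independent and leave out that both tissues of an animal were dissected. Permutation p-values are not adjusted for the members compared.

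Ednrb had 2, 181, 0, 0 and 0 gene reads in aneurysms 4 to 8, against 163, 46, 68, 0 and 0 in circle of Willis 4 to 8. Aneurysm 5 held 98.9% of the aneurysm reads, while 3 of 5 circle of Willis samples had at least 46. The mean was 3.39 ± 7.44 CPM in aneurysms, against 11.5 ± 12.4 CPM in circle of Willis samples (SD, n = 5 each; exact permutation p = 0.286, two-sided). The gene did not pass the filter on low counts, and without the filter its log2 fold change was −1.73 (SE 2.11, adjusted p = 0.788 in edgeR). Ednrb lies on chromosome 15, from 88006976 to 88036354, and overlaps the annotated span of Mycbp2, which had 29229 reads. Of its reads, 94.3% were exon reads. Aneurysms 4 to 8 had 1, 168, 0, 0 and 0 of these, against 151, 46, 68, 0 and 0 in circle of Willis 4 to 8, the same samples that held its gene reads. Whether reads were shared with Mycbp2 was not tested.

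Agtr1a, the receptor through which angiotensin II constricts arteries, reached 10 reads only in aneurysms, in 3 of 5. It had 2, 11, 396, 197 and 1 gene reads in aneurysms 4 to 8, against 1, 1, 2, 5 and 1 in circle of Willis 4 to 8. Aneurysms 6 and 7 were far above all other samples and aneurysm 5 slightly above, while aneurysms 4 and 8 lay within the range of the circle of Willis in CPM. The mean was 22.6 ± 32.1 CPM in aneurysms, against 0.458 ± 0.290 CPM in circle of Willis samples (SD, n = 5 each), with an exact permutation p of 0.0873 (two-sided) on mean CPM and 0.0952 on ranks. Agtr1a did not pass the filter; without it the log2 fold change was 5.67 (SE 2.19), at an adjusted p of 0.159 in edgeR. DESeq2 gave 6.05 (SE 1.48, adjusted p = 0.00352), a fit that differs from edgeR in its scaling and in the genes adjusted over as well as in the test. Of the 617 reads of Agtr1a over both groups, 616 fell in introns. Fibroblast markers summed to 14410 CPM in aneurysm 6 and 3956 CPM in aneurysm 7. They also summed to 19987 CPM in aneurysm 5, where Agtr1a had 11 reads. These sums were mostly collagen reads. In aneurysm 6, Col1a1 had 62711 and Col3a1 15443 reads, Dcn 790 and Lum 965, and Pdgfra and Dpt had 0. The part of fibroblasts in the Agtr1a reads was not tested.

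Ace, which makes angiotensin II at the endothelial surface, was the least read member. It had 0, 53, 0, 1 and 0 gene reads in aneurysms 4 to 8, against 31, 1, 0, 0 and 2 in circle of Willis 4 to 8. A single sample thus held 98.1% of the reads in aneurysms and 91.2% in the circle of Willis. The means were 1.02 ± 2.17 CPM in aneurysms, against 1.30 ± 2.32 CPM in circle of Willis samples (SD, n = 5 each; exact permutation p = 0.563, two-sided), and this depth could not show a difference.

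Nr3c2 was read in every sample. It had 1914, 530, 376, 91 and 446 gene reads in aneurysms 4 to 8, against 1402, 1279, 587, 1330 and 363 in circle of Willis 4 to 8. On the CPM scale these were 224, 48.9, 67.8, 18.4 and 353 in aneurysms, against 244, 271, 169.5, 235 and 162 in the circle of Willis. Aneurysms 5, 6 and 7 were below every circle of Willis sample and aneurysm 8 was above them. The means were 142 ± 142 CPM in aneurysms, against 216 ± 48.0 CPM in circle of Willis samples (SD, n = 5 each), and the log2 fold change was −0.60 (SE 0.73, adjusted p = 0.999 in edgeR; exact permutation p = 0.278, two-sided). Without aneurysm 8 the log2 fold change was −1.24 (adjusted p = 0.750 in edgeR), and the exact permutation p was 0.0476, where 0.0159 is the smallest that 4 against 5 samples allow.

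Of the nitric oxide synthases, Nos1, the neuronal form, lay below every circle of Willis sample in 4 of the 5 aneurysms in CPM of gene reads. It had 702, 338, 184, 14 and 14 gene reads in aneurysms 4 to 8, against 547, 161, 290, 339 and 183 in circle of Willis 4 to 8. These were 82.3, 31.2, 33.2, 2.83 and 11.1 CPM in aneurysms, against 95.1, 34.1, 83.8, 59.8 and 81.5 CPM in the circle of Willis. Aneurysms 5 to 8 were the samples below, and aneurysm 4 was within the range of the circle of Willis. At least 4 aneurysms lay below every circle of Willis sample in 6.5% of all genes tested. The means were 32.1 ± 30.9 CPM in aneurysms, against 70.8 ± 24.2 CPM in circle of Willis samples (SD, n = 5 each), with an exact permutation p of 0.0476 (two-sided). That p is not adjusted for the 9 members compared, and it was 0.159 with CPM of the unscaled library size and 0.0952 without aneurysm 8. In edgeR the log2 fold change was −1.14 (SE 0.95, adjusted p = 0.999). Unique reads of Nos1 were 537, 273, 181, 13 and 14 in aneurysms 4 to 8. In circle of Willis 4 to 8 they were 509, 154, 210, 108 and 183. Circle of Willis 7 thus had 108 unique of 339 gene reads, fewer than aneurysms 5 and 6. The 4 of 5 above therefore holds for gene reads, not for unique reads. On unique reads the edgeR log2 fold change was −1.07 (SE 1.04), and the permutation test was not run on them. Neuron marker sums were lower in all 5 aneurysms than in any circle of Willis sample (above), and their part in the Nos1 values was not tested.

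Nos3, the endothelial form, was read in every circle of Willis sample and nearly only in aneurysm 5 among the lesions. It had 1, 377, 0, 2 and 2 gene reads in aneurysms 4 to 8, against 152, 35, 34, 104 and 21 in circle of Willis 4 to 8. Aneurysm 5 was above every circle of Willis sample, and the other 4 aneurysms were below all of them, as in the 6.5% of all genes given above. The means were 7.38 ± 15.3 CPM in aneurysms, against 14.3 ± 7.99 CPM in circle of Willis samples (SD, n = 5 each), and the log2 fold change was −0.94 (SE 1.72, adjusted p = 0.999 in edgeR). Without aneurysm 5 it was −4.71 (adjusted p = 0.607 in edgeR). The exact permutation p was 0.397 on mean CPM, 0.151 on ranks and 0.0476 on log2 CPM with a prior count of 2 (all two-sided), so that the scale decided it. None of these is adjusted for the members compared. Exon reads of Nos3 were 0, 283, 0, 1 and 0 in aneurysms 4 to 8, against 3, 35, 34, 104 and 5 in circle of Willis 4 to 8. Aneurysm 5 was again the highest and the other 4 aneurysms were below every circle of Willis sample, while most reads of circle of Willis 4 were in introns (149 of 152).

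Endothelial markers summed to 66.3, 259, 303, 134 and 159.8 CPM in aneurysms 4 to 8, against 121 to 315 CPM in circle of Willis samples. Aneurysm 6 thus had the highest endothelial sum among the lesions and 0 Nos3 reads. Single markers were uneven. Kdr, the receptor for vascular endothelial growth factor, had 4, 231, 1, 0 and 0 reads in aneurysms 4 to 8, and Cdh5, the cadherin of endothelial junctions, had 232, 45, 5, 1 and 0. In aneurysm 5, all 9 endothelial markers of the table had at least 10 reads, and in aneurysm 8 only 2 had. Their part in the Nos3 values was not tested.

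The phosphodiesterases were read widely. Pde5a, which ends the cyclic GMP signal, had 749, 653, 137, 88 and 3 gene reads in aneurysms 4 to 8, against 351, 521, 159, 499 and 17 in circle of Willis 4 to 8. The samples numbered 8 were lowest in both groups, and the groups overlapped. The means were 38.6 ± 34.8 CPM in aneurysms, against 62.5 ± 39.4 CPM in circle of Willis samples (SD, n = 5 each), and the log2 fold change was −0.69 (SE 0.99, adjusted p = 0.999 in edgeR; exact permutation p = 0.317, two-sided). Without aneurysm 8 it was −0.38.

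Exon reads of Pde5a separated the groups where its gene reads did not. Aneurysms 4 to 8 had 0, 1, 0, 0 and 0 exon reads, and circle of Willis 4 to 8 had 4, 12, 19, 13 and 17. Every aneurysm was below every circle of Willis sample, while intron reads were 749, 652, 137, 88 and 3 in aneurysms against 347, 509, 140, 486 and 0 in the circle of Willis. Over whole libraries, 35.7% to 49.8% of gene reads were in introns in aneurysms, against 32.8% to 47.1% in circle of Willis samples. Exon reads of the groups did not overlap, in either direction, in 0.628% of the 10988 genes with at least 10 exon reads, and were lower in aneurysms in 0.391%. The difference in exon CPM had an exact permutation p of 0.00794 (two-sided), the smallest that 5 against 5 samples allow, and 0.0159 without aneurysm 8, the smallest for 4 against 5. These p-values are not adjusted for the members compared, and they leave out the matching of both tissues within an animal. In edgeR on exon reads with no filter, the log2 fold change was −6.75 (SE 3.60, adjusted p = 0.217), so that it was not a call over all genes. It rests on 66 exon reads in all, 1 in aneurysms and 65 in circle of Willis samples, of 3177 gene reads.

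**Figure D2:**
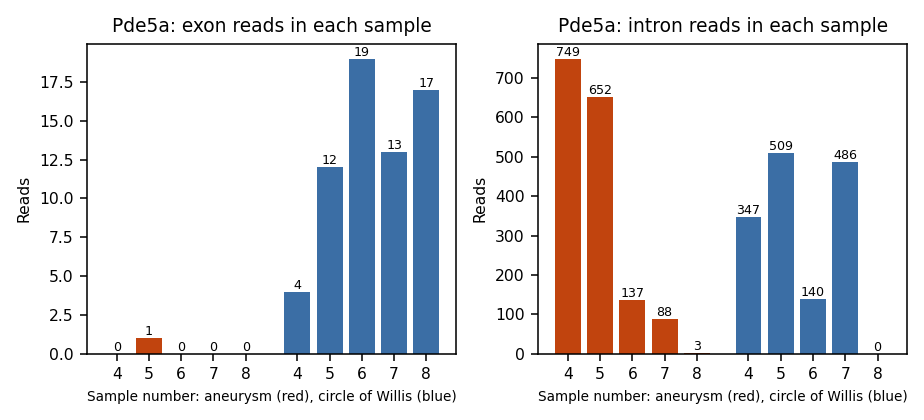
Exon reads (left) and intron reads (right) of Pde5a in each aneurysm (red) and circle of Willis sample (blue), as bars from 0 with the count above each. The aneurysms had 0 or 1 exon reads and the circle of Willis 4 to 19, while intron reads reached 749 in aneurysms and 509 in the circle of Willis.

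Pde3a, the cyclic GMP-inhibited phosphodiesterase of smooth muscle and platelets, was the member with the most reads. It had 1196, 1364, 1081, 962 and 526 gene reads in aneurysms 4 to 8, against 1186, 607, 679, 669 and 269 in circle of Willis 4 to 8. In CPM, aneurysm 8 stood at 416 and the other aneurysms at 126 to 195, against 118 to 206 in the circle of Willis. The means were 214 ± 117 CPM in aneurysms, against 154 ± 43.6 CPM in circle of Willis samples (SD, n = 5 each), and the log2 fold change was 0.48 (SE 0.64, adjusted p = 0.999 in edgeR; exact permutation p = 0.325, two-sided). Without aneurysm 8 the log2 fold change was 0.11, and without both samples numbered 8 it was −0.01. Pde3a was the tested member with the smallest standard error, and its values give no difference beyond the spread. Its 90 exon reads were 42 in aneurysm 7, against 25 in circle of Willis 4 and 23 in circle of Willis 5.

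**Figure D3:**
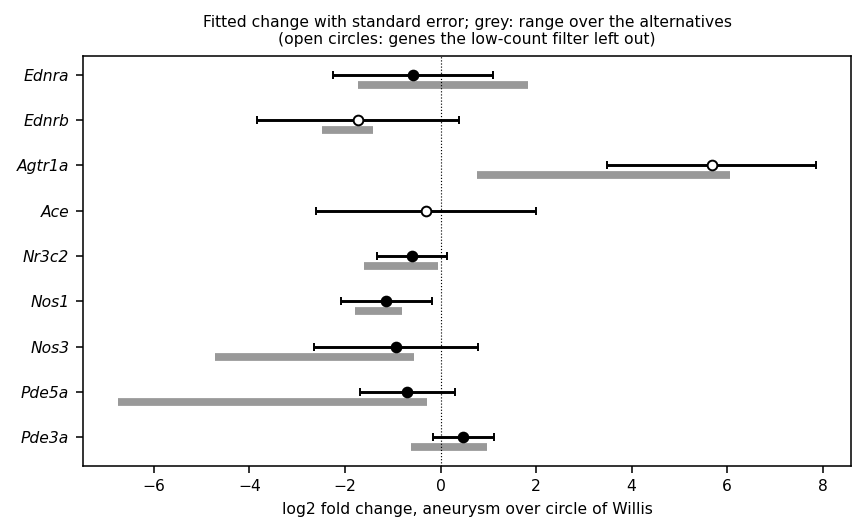
Log2 fold change of each member, aneurysm over circle of Willis (x axis), with 1 standard error either side. Open circles are members that the low-count filter left out, shown from the fit without it, and grey bars give the range over the alternative settings. The interval of 1 standard error crosses 0 for all members except Agtr1a and Nos1, and the grey bars of Ednra and Pde3a cross 0.

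Levels between genes are compared per length, as mean CPM per kilobase of gene span, because most members were read mainly in introns. Ednrb and Nos3 were not, with 94.3% and 63.9% of their reads in exons. Division by the whole span is thus not like for like for these genes, and their places in the order are not comparable with the others. In aneurysms the order was Pde3a (0.799), Nr3c2 (0.468), Agtr1a (0.444), Nos3 (0.339), Pde5a (0.274), Ednra (0.116), Ednrb (0.115), Nos1 (0.105) and Ace (0.0597). In the circle of Willis it was Nr3c2 (0.7096), Nos3 (0.656), Pde3a (0.573), Pde5a (0.444), Ednrb (0.393), Nos1 (0.231), Ednra (0.173), Ace (0.0761) and Agtr1a (0.00899). Agtr1a stood in the upper part of the order in aneurysms and at its end in the circle of Willis. Its place in aneurysms rested on aneurysms 6 and 7, with 396 and 197 of its 607 reads there. Its median in aneurysms was 1.01 CPM, against a mean of 22.6 CPM. In both groups, neighbours in the order differed by less than the SD of at least 1 of them in every case. The order in aneurysms also turned on aneurysm 8. Without that sample the values were 0.610 for Pde3a, 0.551 for Agtr1a, 0.406 for Nos3, 0.338 for Pde5a and 0.295 for Nr3c2, with the other members at 0.0746 to 0.144.

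Most members were read in their introns. Nr3c2 had 0 exon reads among 8318 gene reads, Nos1 0 among 2772 and Ace 0 among 88. Agtr1a had 1 exon read among 617 and Ednra 4 among 516, both in aneurysm 5. In 10.2% of all genes tested no exon read was counted in any sample, and the median share of reads in introns over all genes tested was 69.9%. The share was 97.9% for Pde5a and 98.9% for Pde3a, and it was lowest in Ednrb at 5.65% and Nos3 at 36.1%. Of all genes tested, 22.2% had over 95% of their reads in introns.

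Exons are a small part of these genes by length, and most members held fewer exon reads than that part. The exons of Nr3c2 cover 0.864% of its 304.4 kilobases, and even reads over the span would have put 71.9 reads there. For Nos1 the value was 61.8 against 0 counted, for Ace 17.7 against 0, for Ednra 41.4 against 4, and for Agtr1a 26.4 against 1. Pde5a had 66 against 76.6 and Pde3a 90 against 109.0, nearer to an even spread, but these sums pool groups that differed. Exons cover 2.41% of the span of Pde5a, and exon reads were 65 of 1547 in the circle of Willis and 1 of 1630 in aneurysms. For Pde3a they cover 1.28%, and exon reads were 48 of 3410 and 42 of 5129. Summed over the samples of a group, both genes were thus above their exon share in the circle of Willis and below it in aneurysms. For Pde3a this did not hold sample by sample. Its exon reads were 25 in circle of Willis 4, 23 in circle of Willis 5 and 42 of 962 gene reads in aneurysm 7. All other samples had 0. Ednrb had 434 exon reads against 31.2, and Nos3 had 465 against 180.2. With both groups summed, only these 2 members held more exon reads than their length would give. Reads across exon junctions, which come from spliced RNA, numbered 22 for Pde5a, 25 for Pde3a and 0 for the other 7 members. All 25 of Pde3a were in circle of Willis 4, and 16 of the 22 of Pde5a were in circle of Willis 6. How far the gene reads of any member measure spliced transcripts was not tested.

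**Figure D4:**
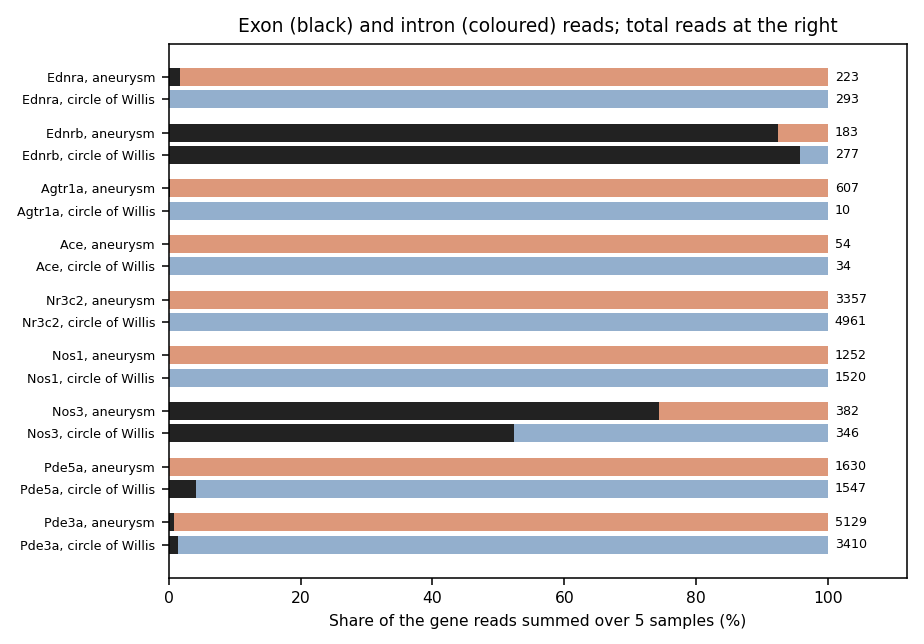
Share of gene reads in exons (black) and introns (red for aneurysm, blue for circle of Willis), in percent of the reads summed over 5 samples, with the total at the right. Ednrb and Nos3 are mostly exon reads in both groups, while Ace, Nr3c2 and Nos1 have 0 exon reads in all samples.

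Positions are those of Rnor6. Nos3 spans 7320667 to 7342410 on chromosome 4 with 26 exons, and Nos1 spans 44213942 to 44520341 on chromosome 12 with 32 exons. Agtr1a spans 35907107 to 35958077 on chromosome 17 with 3 exons, and Pde5a spans 226900618 to 227041576 on chromosome 2 with 21 exons. Nr3c2, at 34448288 to 34752695, and Ednra, at 33928355 to 33991703, are both on chromosome 19, with 6 and 16 annotated exons. Ace spans 94170765 to 94187822 on chromosome 10 with 22 exons, and Pde3a spans 175431903 to 175700238 on chromosome 4 with 16 exons. Nos3 overlaps Atg9b, which had 22 reads, Nr3c2 overlaps Rps27a-ps6 with 3, and Nos1 overlaps Fbxo21 with 0. Nos1 had 78.7% of its reads in the unique class, against 94.3% or more in the other members, so that part of its reads could also belong elsewhere.

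The gene whose log2 CPM was most like that of each tested member, over 10 samples and 7614 genes, was Scgb2b24 for Ednra (r = 0.918), Napepld for Nr3c2 (r = 0.948), Pdss2 for Nos1 (r = 0.947), Cct6b for Nos3 (r = 0.950), Pitpna for Pde5a (r = 0.954) and Entpd3 for Pde3a (r = 0.956). These are descriptions of 10 points that share library and scaling, and the highest of many values.

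Related genes of the pathway were read by 8 lists that hold 132 genes, of which 129 were in the table and 64 were tested. In edgeR 0 were higher and 0 lower at an adjusted p under 0.05, against 0.118% higher and 0.0394% lower of all genes tested, and 5 of 64 had an unadjusted p under 0.05, against 5.73% of all genes tested. Of the 129, DESeq2 called 2 higher (Anpep and S1pr3) and 2 lower (Mme and Prkg2), against 1.89% higher and 1.92% lower of the genes it tested. The median log2 fold change was −0.27 against 0.13 over all genes tested, with 30 positive and 34 negative. The CPM of the groups did not overlap for 3 genes (Mme, Atp6ap2 and Nosip), or 4.69%, against 2.04% of all genes tested. Of the 23 list genes named below, 10 had a log2 fold change that leaving out a single sample turned or moved by over 1.5 times (Agt, Zbtb16, Fkbp4, Cyb5r3, Gucy1b3, Npr1, Pde7a, Tbxa2r, Aplnr and P2ry2).

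Around the endothelin receptors, 2 of 8 listed genes were tested. Mme, neprilysin, an enzyme that degrades endothelin and natriuretic peptides, had 3, 0, 3, 1 and 1 reads in aneurysms 4 to 8, against 135, 103, 250, 16 and 84 in circle of Willis 4 to 8. Its groups did not overlap, and its log2 fold change was −6.44 (SE 1.89, adjusted p = 0.283 in edgeR, 4.35e-05 in DESeq2). Ece1, which makes endothelin from its precursor, had −1.04 (SE 1.34, adjusted p = 0.999 in edgeR). The ligand genes, named after their values were seen, were hardly read: Edn1 had 2 reads in aneurysms and 1 in the circle of Willis, Edn2 had 0 in both, and Edn3 had 6 in aneurysms and 7 in the circle of Willis.

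In the renin-angiotensin list, 6 of 11 genes were tested, and 3 were positive. Anpep, an aminopeptidase that degrades angiotensin III, had 170, 1726, 1083, 224 and 145 reads in aneurysms 4 to 8, against 61, 52, 77, 188 and 15 in circle of Willis 4 to 8. Its log2 fold change was 2.67 (SE 0.92, adjusted p = 0.507 in edgeR, 0.0181 in DESeq2). Atp6ap2, the (pro)renin receptor, had 313, 653, 404, 250 and 236 reads in aneurysms, against 75, 1, 127, 10 and 1 in the circle of Willis. Its groups did not overlap, though the lowest aneurysm and the highest circle of Willis sample were both at 36.7 CPM (log2 fold change 2.96, SE 1.20, adjusted p = 0.684 in edgeR). Agt, the precursor of angiotensin, had −1.32 (SE 1.80), and −0.31 without circle of Willis 4.

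Of the steroid receptor list, 5 of 9 genes were tested, and the largest change was that of Hsd11b1, which regenerates active glucocorticoid, at 2.65 (SE 1.67, adjusted p = 0.992 in edgeR). Zbtb16 had −0.74 and Fkbp4 −1.02, neither near the threshold. Of 19 genes of nitric oxide handling, 8 were tested. Nosip, which binds Nos3 and lowers its activity, had 5, 85, 2, 80 and 0 reads in aneurysms, against 107, 176, 159, 221 and 73 in the circle of Willis. Its log2 fold change was −2.78 (SE 1.53, adjusted p = 0.911 in edgeR). Cyb5r3, a cytochrome b5 reductase, had 2.91 (SE 1.77), but 9.15 without circle of Willis 4, which held 164 of its 165 reads in the circle of Willis. Hsp90aa1, a chaperone that binds Nos3, had −1.22 (SE 0.67), though 0% of its reads were in the unique class, so that they could belong to its copies. The median of this list was 1.02.

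In the guanylate cyclase list, 5 of 10 genes were tested. Log2 fold changes were −2.60 (SE 1.70) for the natriuretic peptide receptor Npr2, −1.15 (SE 1.74) for Gucy1b3, a subunit of the nitric oxide sensor, and −0.32 (SE 1.49) for Npr1, which was 0.056 with RLE scaling. The other phosphodiesterases had 16 of 17 genes tested, with a median of −0.52. Pde2a, which cyclic GMP activates, had −3.48 (SE 1.79), Pde7b −1.34 (SE 0.78) and Pde7a 2.39 (SE 1.39). Of 18 kinases and targets, 16 were tested, with a median of −0.05. Prkar2a, a regulatory subunit of protein kinase A, had −3.02 (SE 1.41), Kcnma1, the calcium-activated potassium channel that cyclic GMP signalling opens, had −2.09 (SE 1.01), and Vasp, a substrate of the kinase, had 2.25 (SE 1.66). None passed the adjusted threshold in edgeR.

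Among 40 other vasoactive receptors, only 6 passed the filter, with a median of 1.53. Tbxa2r, the thromboxane receptor, had 3.52 (SE 1.89), and Aplnr, the apelin receptor, 2.37 (SE 1.48), but without aneurysm 8 these values were 0.21 for Tbxa2r and 0.79 for Aplnr. P2ry2, a nucleotide receptor, had 2.60 (SE 1.95), but 9.92 without circle of Willis 4, which held all 108 of its reads in the circle of Willis. S1pr3, a sphingosine 1-phosphate receptor called by DESeq2 alone, had 339 reads in aneurysm 5, 294 in aneurysm 6 and 0 in every other sample, and did not pass the filter. Prkg2, the relative of Prkg1, had 5, 1, 0, 0 and 0 reads in aneurysms 4 to 8, against 12, 201, 73, 7 and 0 in circle of Willis 4 to 8. It was called by DESeq2 alone and did not pass the filter, and its groups overlapped.

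**Figure D5:**
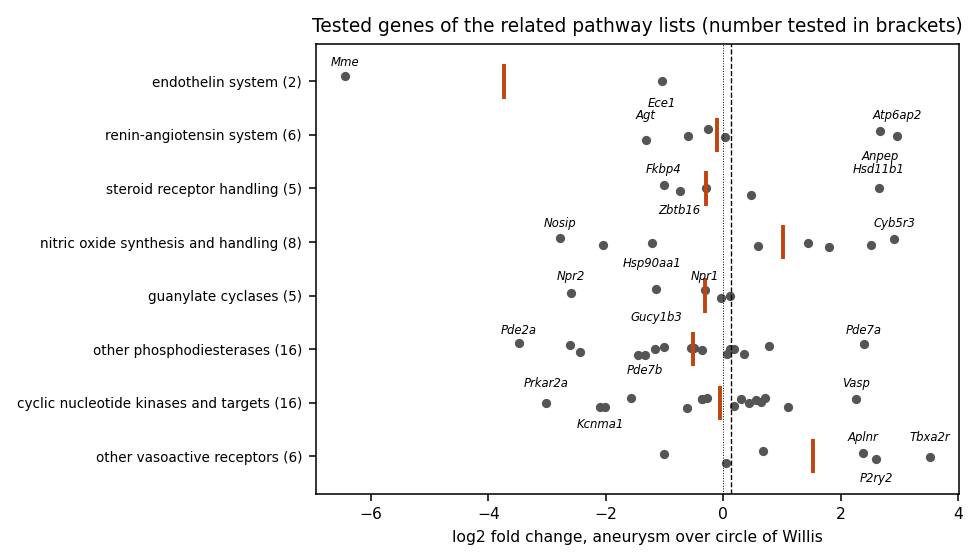
Log2 fold change (x axis, aneurysm over circle of Willis) of each tested gene (point) in the 8 related lists, with the number tested in brackets, the list median (red bar) and the median of all genes tested (dashed line, 0.13). Named genes are those with the lowest p in each list. Points fall on both sides of 0 in every list but the endothelin list, where 2 genes were tested.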

How the data were processed

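Poly(A)-selected RNA (500 ng) of 5 aneurysms and 5 samples of the remaining circle of Willis was sequenced, and the authors mapped the reads with CLC genomics workbench (version 11) against Rnor6. Groups and sample numbers came from the labels, and the numbers were not taken as animals. A p-value here thus speaks of the spread among samples, which may be partly technical. The main fit and the permutation tests treated the samples as independent, although both tissues of an animal were dissected. The library kit was a stranded one, according to the methods of the study. The settings of the mapping for strand, duplicate reads and annotation release were not given in the sources used here. Counts were deposited as gene, exon, exon-junction, intron and unique reads, not normalized by the authors. The deposited comparison (p-values and fold changes) and the normalized values were not used, and 0 columns of samples were unmatched.

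The main fit used edgeR 4.0.16 in R 4.3.3 on gene reads (filterByExpr with a count minimum of 10, TMM scaling, the quasi-likelihood test, Benjamini-Hochberg threshold 0.05), with DESeq2 1.42.0 and limma 3.58.1 as alternatives. Tables and exact permutation tests were made in Python 3.11.15 with pandas 2.3.3, numpy 2.4.6 and scipy 1.17.1, and plots with matplotlib 3.10.9. CPM uses TMM-scaled library sizes, and log2 CPM a prior count of 2. No pair of libraries in a group agreed within sampling noise (lowest chi-square by degrees of freedom 55.8). The members and gene lists were chosen with earlier results of these data known. Named genes were all members and, in each list, the 3 tested genes with the lowest unadjusted p, besides any past the threshold. Further alternatives were 23 fits and 3 permutation scales, and others were added after the data were seen (DESeq2 on filtered genes, exon reads without a filter, and the permutation tests and levels per kilobase without aneurysm 8). Prkg1, Nr3c1, Nos2, Nos1ap, Pecam1 and Itgam were not analysed here.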

Additional observations from a re-analysis of the deposited data

Results flagged for a closer look

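Of 18 groups of 5 samples, 5 held a sample whose gap to its neighbour, relative to the range, exceeded 0.71. For normally distributed values chance gives about 1 in 20, and in these data 18.7% of the 15228 groups of all genes tested exceeded it. That share covers only genes that passed the low-count filter. The 18 groups include those of Ednrb, Agtr1a and Ace, which did not pass, so the sets are not alike. Aneurysm 5 stood apart from the other aneurysms in Ednrb (16.7 CPM, 181 reads, against 0 to 0.235 CPM), in Ace (4.89 CPM, 53 reads, against 0 to 0.202 CPM) and in Nos3 (34.8 CPM, 377 reads, against 0 to 1.58 CPM). It also had the most genes at 10 or more exon reads of any library (7590). Circle of Willis 4 stood apart in Ace (5.39 CPM, 31 reads, against 0 to 0.890 CPM in the others of its group). Aneurysm 8 stood apart in Pde3a (416 CPM, 526 reads, against 126 to 195 CPM), the library with the TMM factor of 0.282.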

How the results depend on the processing

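The count of genes called over all genes was 12, and it moved to 529 with DESeq2, 132 with DESeq2 on the genes kept by the filter, 3 with RLE scaling, 2 with upper-quartile scaling, 2 with library size only, 130 with no low-count filter, 28 with at least 10 reads in at least 3 samples, 0 with intron reads, 30 with exon reads and no filter, and 24 without both samples numbered 8. Leaving out each sample in turn gave 1 to 33. DESeq2 called 1 member, Agtr1a, and the other fits called 0 of the members they gave a value for. Agtr1a had a value in 4 fits (DESeq2, no filter, at least 10 reads in at least 3 samples, and exon reads with no filter), and Ace in 2 (DESeq2 and no filter). The fit on exon reads with the filter gave no value for any member, since none passed. With sample number as a replicate block, 17 genes and 0 members were called. Same-number correlations of sample deviations were −0.02 to 0.14, and aneurysms 6 and 8 alone correlated best with their own number, and whether equal numbers mark the same animal is not settled by this. Signs turned for Ednra without circle of Willis 4 (0.34) and on unfiltered exon reads (1.83), and for Pde3a without both samples numbered 8 (−0.014) and on unfiltered exon reads (−0.63). They also turned for Agt with limma-voom (0.091) and the block (1.06), for Npr1 with DESeq2 (0.15), DESeq2 on filtered genes (0.057), RLE scaling (0.056), without aneurysm 7 (0.028) and without circle of Willis 6 (0.14), for Tbxa2r without both samples numbered 8 (−0.16), and on unfiltered exon reads for Zbtb16 (0.58) and Prkar2a (3.32). Leaving out each sample in turn gave −1.73 to 0.34 for Ednra and −2.09 to 0.14 for Npr1. The exon permutation p was 1 for Ednra and for Pde3a, and 0.889 for Ednra without aneurysm 8, with signs opposite to those of gene reads. The cause was not tested. Of 550 values of the 23 named list genes, 536 kept their sign and side of the threshold, 4 passed it (Mme and Anpep in both DESeq2 fits) and 10 changed sign.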
